A study of Mus musculus with 2 samples.

Results

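The vehicle-only distal peaks were 2381 intervals of open chromatin that were called by DNaseI-seq in vehicle-treated NMuMG cells, shared no base with any interval called after TGFβ, and lay away from annotated promoters. They were taken from 17784 vehicle intervals on mouse assembly mm9, after repeated rows had been collapsed, and were set against 22600 TGFβ intervals. Of all vehicle intervals 3128, or 17.6%, had no overlapping base in the TGFβ list, and 747 of these were left out because they came within 1000 bp of a GENCODE M1 transcript start. The 2381 that remained were 31.6% of the 7533 distal vehicle intervals. In the other direction, 6519 of 11783 distal TGFβ intervals (55.3%) had no overlapping base in the vehicle list. The members were chosen by the overlap between the lists, so these counts describe the selection and were not tested.

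NMuMG cells are epithelial cells derived from the mammary gland of a normal mouse. All were starved of serum and insulin (6 h) before treatment for 2 h with TGFβ1 at 5 ng/ml or with its carrier (vehicle, HCl with BSA). Of 32 epithelial junction and splicing genes, 20 had a peak at a start in the vehicle list, 18 in the TGFβ list and 12 in neither. Cdh1 (E-cadherin), Krt8 and Krt18 were in both lists, and Epcam, Esrp1, Krt7, Cldn3 and Cldn4 were among those in neither. The share over all protein-coding genes was not computed, so these counts do not test the epithelial label. Each condition had 1 deposited peak list, so the spread between replicates was unknown and no difference between conditions could be tested. Intervals given with shares are Wilson 95% intervals, those given with medians are order-statistic 95% intervals, and both cover the counting of peaks only. Where a count was 0, the limit given is 3 counts of the total in place of a Wilson limit. "Vehicle-only" says in which list a peak was called, not that the site was closed after TGFβ. The study's reporting summary gives the vehicle library as the more deeply sequenced, and the part of depth in these calls was not tested.

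DNaseI cuts accessible DNA, and distal hypersensitive sites include enhancers, where transcription factors bind short motifs, as well as silencers and insulators. AP-1, a dimer of Jun and Fos proteins, binds many enhancers of epithelial cells, and TEAD factors often bind beside it. CTCF binds insulators and the anchors of chromatin loops and acts with cohesin. TGFβ signals through Smad2 and Smad3, which bind DNA with Smad4 and partner factors, and it drives NMuMG cells toward a mesenchymal state.

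Of 20 motifs searched, the CTCF consensus had the highest share in vehicle-only distal peaks relative to TGFβ 2 h-only distal peaks. The windows printed here hold the 200 bases around the midpoint of a peak on the forward strand of mm9. The first pair come first by position among the 12 members at the highest score that hold the CTCF consensus, with the match in capitals; in the window near Crb2 the match reads on the reverse strand.
Member near Crb2, chr2:37627357-37627556: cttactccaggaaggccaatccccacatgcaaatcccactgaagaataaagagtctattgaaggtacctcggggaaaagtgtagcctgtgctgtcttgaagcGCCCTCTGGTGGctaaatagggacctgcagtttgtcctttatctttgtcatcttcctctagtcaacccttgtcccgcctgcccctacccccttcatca
Member near Mapre3, chr5:31108494-31108693: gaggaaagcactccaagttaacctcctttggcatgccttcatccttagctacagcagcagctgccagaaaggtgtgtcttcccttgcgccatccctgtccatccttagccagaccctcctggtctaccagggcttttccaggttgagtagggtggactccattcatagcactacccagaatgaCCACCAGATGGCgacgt

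The next pair come first among the 22 members at the highest score that hold CAGGTG, the E-box bound by Snai and Zeb factors among others, which was also more frequent in the members. Capitals mark the E-box on either strand.
Member near Blcap, chr2:157430733-157430932: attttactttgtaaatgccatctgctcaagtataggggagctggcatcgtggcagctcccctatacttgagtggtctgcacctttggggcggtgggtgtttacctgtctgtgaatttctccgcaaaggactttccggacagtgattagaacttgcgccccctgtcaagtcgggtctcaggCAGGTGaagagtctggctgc
Member in St3gal3, chr4:117734811-117735010: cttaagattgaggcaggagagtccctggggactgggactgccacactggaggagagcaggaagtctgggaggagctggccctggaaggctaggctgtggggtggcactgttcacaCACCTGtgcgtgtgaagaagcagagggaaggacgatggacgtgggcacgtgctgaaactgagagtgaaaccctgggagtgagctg

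The last set are the 3 members at the highest score that lay farthest from any TGFβ interval, at 246, 191 and 144 kb. Capitals mark CAGGTG in the window in Egflam and the AP-1 motif TGACTCA in the window in Slc6a5.
Member in Egflam, chr15:7214196-7214395: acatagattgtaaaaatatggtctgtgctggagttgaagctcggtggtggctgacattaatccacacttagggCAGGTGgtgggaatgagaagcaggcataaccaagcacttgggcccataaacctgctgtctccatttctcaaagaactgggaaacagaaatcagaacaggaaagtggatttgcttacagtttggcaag
Member nearest to 1700010M22Rik, chr2:144801836-144802035: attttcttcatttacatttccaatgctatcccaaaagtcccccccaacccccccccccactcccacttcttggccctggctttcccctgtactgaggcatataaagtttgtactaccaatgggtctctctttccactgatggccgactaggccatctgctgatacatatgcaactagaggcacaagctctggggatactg
Member in Slc6a5, chr7:57178571-57178770: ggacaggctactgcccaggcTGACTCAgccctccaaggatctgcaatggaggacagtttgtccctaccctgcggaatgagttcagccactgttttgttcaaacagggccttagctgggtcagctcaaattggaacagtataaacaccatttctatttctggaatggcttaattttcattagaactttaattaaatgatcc

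The peaks in this last set were 696, 216 and 859 bp wide. Repeat content of the windows was not examined. The peak in an intron of Egflam, a matrix protein gene, lay 110 kb from the start of Lifr, the receptor of leukaemia inhibitory factor and the nearest protein-coding start. The peak in an intron of Slc6a5, a glycine transporter gene of inhibitory neurons, lay 11.6 kb from that gene's start. Another member at the highest score, 134 kb from any TGFβ interval, lay in intergenic sequence 244 kb from Ets1, which encodes an ETS factor. The other members of this kind had Ank1, Gm10495, Habp2 and Pik3cg as nearest genes and lay 128, 111, 102 and 86.2 kb from a TGFβ interval.

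The CTCF consensus, a degenerate 12-base motif searched on both strands, was found in 169 of 2381 vehicle-only distal windows, or 7.10% (6.13 to 8.20). It was found in 2.81% (2.40 to 3.30) of 5152 distal vehicle peaks that overlapped a TGFβ interval, here called shared, and in 2.32% (1.98 to 2.71) of 6519 TGFβ 2 h-only distal peaks. The share among members was 3.06 times that among TGFβ 2 h-only peaks, and the intervals of the shares did not meet. Windows 2000 bp away from the members, on the side of lower coordinates only, held it in 0.126% (0.0429 to 0.370). Median GC was 46% in these flanking windows and 52% in the member windows, and this difference was not removed. For all vehicle peaks, promoters included, the share was 2.11%, and for all TGFβ peaks 1.63%.

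No member held more than 1 CTCF match in its window, and 90 of the 169 matches, or 53.3%, lay within 50 bp of the peak midpoint. Even placement over the 200 bp window would give a share near this, so the matches were not shown to be centred. The matches took 15 spellings of the consensus. The most frequent were CCACTAGGTGGC and CCAGCAGGTGGC, with 19 matches each, followed by CCAGCAGAGGGC and CCAGCAGGGGGC with 18 each. No spelling made up more than 11.2% of the matches.

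Members with and without the CTCF match were close in score, distance to genes and intron share. The median score was 658 (638 to 686) with the match and 648.5 (640 to 656) without it, and the median distance to a protein-coding start was 19.9 kb (15.1 to 25.5) against 21.8 kb (20.5 to 23.5). Introns held 40.8% and 40.6% of them. The AP-1 motif was found in 2.96% (1.27 to 6.74) of the members with a CTCF match and in 8.09% (7.03 to 9.30) of the others. Only 4 of the 169 members with the match lay within 1000 bp of a TGFβ interval, a share of 2.37% (0.924 to 5.93), against 7.10% (6.10 to 8.24) of the others. The intervals of the AP-1 shares and of the shares within 1000 bp did not meet, while those of the median gap did, at 20.8 kb (16.0 to 24.6) with the match and 16.0 kb (15.1 to 17.4) without. The selection itself used the gap, so the gap values are a description.

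The AP-1 motif TGACTCA showed the opposite order. It was found in 184 members, or 7.73% (6.72 to 8.87), in 22.3% (21.1 to 23.4) of shared distal vehicle peaks and in 27.2% (26.1 to 28.3) of TGFβ 2 h-only distal peaks. The members' own flanks held it in 3.44% (2.78 to 4.25), so the share in the members was above that of the neighbouring sequence and far below that of the other distal peaks. AP-1 and the TEAD motif GGAATG stood together in 24 member windows (1.01%) and in 282 windows of TGFβ 2 h-only peaks (4.33%). AP-1 itself was in 184 member windows and 1774 TGFβ 2 h-only windows, so the joint shares do not show a difference in pairing.

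The TEAD motif, with or without AP-1, was found in 12.5% (11.2 to 13.9) of members, below the 15.8% (14.8 to 16.8) of shared and the 14.9% (14.1 to 15.8) of TGFβ 2 h-only peaks. The RUNX motif TGTGGTT was found in 6.05% (5.16 to 7.08) of members and 8.05% (7.42 to 8.74) of TGFβ 2 h-only peaks, while the 6.52% of shared peaks was within the members' interval. The palindromic SMAD box GTCTAGAC was found in 1 member and in 44 TGFβ 2 h-only peaks, that is 0.0420% (0.00741 to 0.238) and 0.675% (0.503 to 0.905). Shared peaks held it in 0.291% (0.177 to 0.480), with an interval that met that of the members. It is a strict form of the sites that Smad3 and Smad4 bind, and shorter Smad sites were not searched.

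CAGGTG was found in 486 members, or 20.4% (18.8 to 22.1), against 16.9% (15.9 to 18) of shared and 16.9% (16.0 to 17.8) of TGFβ 2 h-only peaks. Flanking windows of the members held it in 16.3% (14.9 to 17.8). Some spellings of the CTCF consensus contain CAGGTG, and 53 member windows held both motifs. With the matches inside a CTCF consensus left out, the E-box share was 19.2% (17.7 to 20.8) in members, 16.5% (15.5 to 17.6) in shared and 16.5% (15.6 to 17.4) in TGFβ 2 h-only peaks. The E-box difference was therefore small, at a ratio of 1.21 before that step, and the intervals after it were barely apart.

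Over the 20 motifs searched, 2 (CTCF and CAGGTG) had a member share above that of TGFβ 2 h-only peaks with intervals that did not meet, 4 (AP-1, TEAD, RUNX and the SMAD box) lay below, and 14 had intervals that met. This tally is for 200 bp windows and moved with the window. Over whole intervals the TEAD and RUNX intervals met, at 28.3% (26.5 to 30.1) against 30% (28.9 to 31.1) for TEAD and 13.6% (12.3 to 15.1) against 15.4% (14.6 to 16.3) for RUNX. In 100 bp the CAGGTG intervals also met, at 10.5% (9.33 to 11.8) against 8.79% (8.13 to 9.50). Other motifs came apart. Over whole intervals members lay above TGFβ 2 h-only peaks for the Sp and Krüppel-like motif GGGCGG (16.0% against 12.7%) and the Grainyhead-like motif AACCNGTT (3.82% against 2.49%), and below them for the EHF and ELF motif AGGAAGT (12.9% against 15.7%), the FOX motif TGTTTAC (6.93% against 8.90%) and the SOX motif CATTGTT (5.46% against 7.69%). GGGCGG also came apart in 100 bp, at 4.96% against 3.51%, and FOX in 200 bp among peaks that scored no lower than the median of their class, at 2.68% against 4.68%. AP-1, CTCF and the SMAD box kept their order with intervals apart in all of these settings. Against shared peaks, TFAP2 (GCCNNNGGC) and GGGCGG were also lower in members over 200 bp, at 8.48% against 11.4% and 8.44% against 13.1%. With peaks at the score ceiling left out of both classes the intervals met, at 8.55% (7.47 to 9.77) against 9.88% (8.94 to 10.9) for TFAP2 and 8.33% (7.26 to 9.53) against 9.34% (8.42 to 10.3) for GGGCGG. The NRF1 motif GCGCATGCG was in 0.311% of shared windows and in 0 of 2381 member windows, which allows a share of up to 0.126%, and below the ceiling it was in 7 of 3491 shared windows, or 0.201% (0.0972 to 0.413), and 0 of 2281 member windows, with Wilson intervals that met. The GATA motif AGATAA, the EHF and ELF motif and the Grainyhead-like motif, which epithelial factors bind, had 200 bp shares of 8.53%, 6.22% and 1.39% in members, with intervals that met those of both other classes in that window. A motif match is a run of letters and does not show that a factor was bound.

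**Figure D1:**
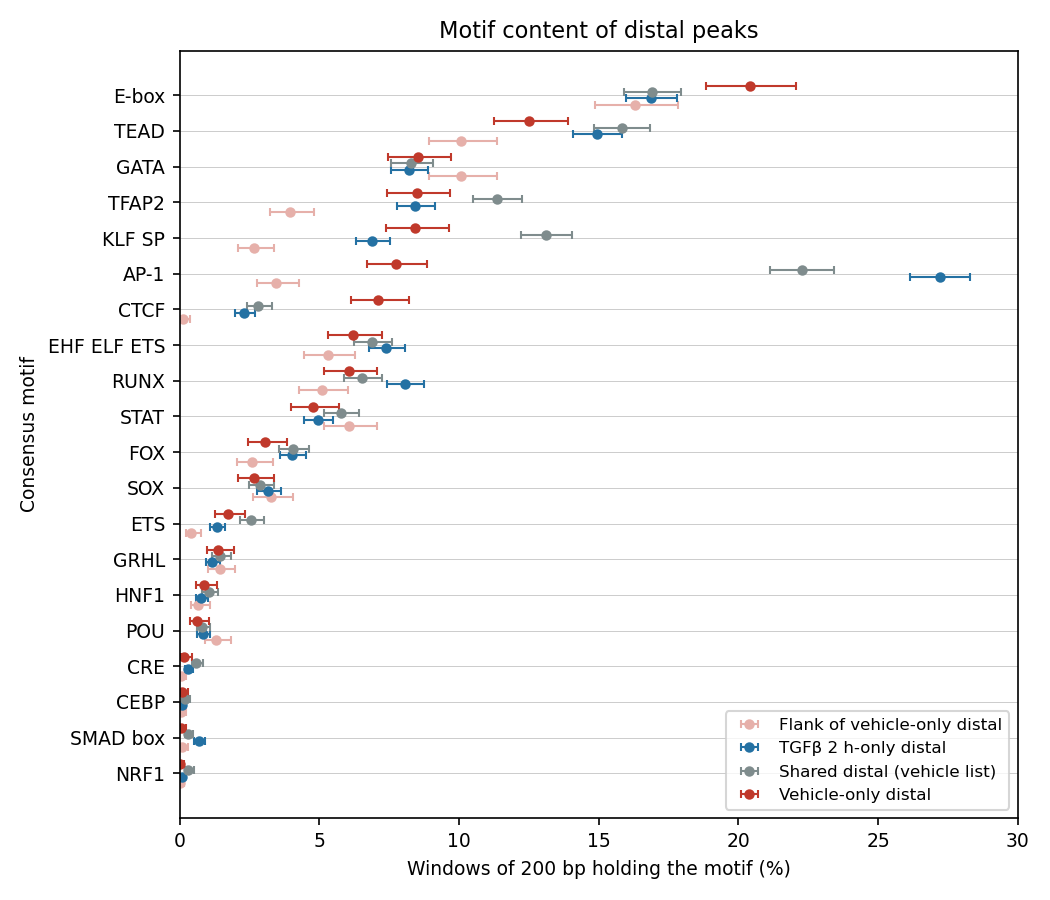
Share of 200 bp windows that hold each of 20 consensus motifs (x axis, %), for vehicle-only distal peaks, shared distal peaks, TGFβ 2 h-only distal peaks and windows 2000 bp from the vehicle-only peaks; points are shares and bars Wilson 95% intervals. CTCF and the E-box lie to the right in vehicle-only peaks (7.10% and 20.4%), and AP-1 lies far to the left of both other peak classes (7.73% against 22.3% and 27.2%).

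Median GC was 52% in members, 53% in shared and 51% in TGFβ 2 h-only windows, against 46% in the members' flanks. When windows were divided into 4 bins of GC content, the CTCF and CAGGTG shares were higher in members than in TGFβ 2 h-only peaks in 4 of 4 bins, and the AP-1 share was higher in 0 of 4. For CAGGTG the intervals met in every bin, and the shares were 20.4% against 20.0% in the bin with the second-highest GC and 25% against 23.2% in that with the highest. In the bin with the lowest GC the CTCF share was 3.28% in members and 1.02% in TGFβ 2 h-only peaks, and in the bin with the highest GC it was 7.67% and 2.60%.

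The orders of CTCF and AP-1 were also seen at each level of the authors' peak score, a whole number from 540 to a ceiling of 1000 that ranks peaks within a list. Distal peaks below the ceiling were divided into 4 score bins of about equal size in their own list. From the lowest bin to the ceiling the AP-1 share of members went 8.78%, 8.44%, 7.05%, 5.26% and 5.00% (the ceiling held 100 members, with an interval of 2.15 to 11.2), while that of TGFβ 2 h-only peaks went 20.8%, 24.0%, 28.9%, 35.2% and 39.8%. The CTCF share of members lay between 5.93% and 8.28% in the 4 bins and was 12% (7.0 to 19.8) at the ceiling. TGFβ 2 h-only peaks ran from 2.57% in the lowest bin to 0 of 515 peaks at the ceiling, which allows a share of up to 0.583%.

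Shared distal peaks were ranked in each list by its own score: 5152 vehicle intervals, and 5264 distal TGFβ intervals that overlapped a vehicle interval. The intervals and their windows therefore differ between the rankings. The TGFβ score is not independent of the selection, since the members are sites with no call in the TGFβ list, so these values are a description. The shared TGFβ intervals, ranked by their score, held CTCF in 7.61% (5.49 to 10.4) of the lowest bin and 0.894% (0.573 to 1.39) at the ceiling. The bins between held it in 5.32%, 4.85% and 2.94%. AP-1 ran the other way, from 12.1% (9.38 to 15.4) in the lowest bin to 28.4% (26.5 to 30.3) at the ceiling. The shared vehicle intervals, ranked by their score, held CTCF in 3.07% of the lowest bin and 1.75% at the ceiling, and AP-1 in 22.9% and 19.1%.

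**Figure D2:**
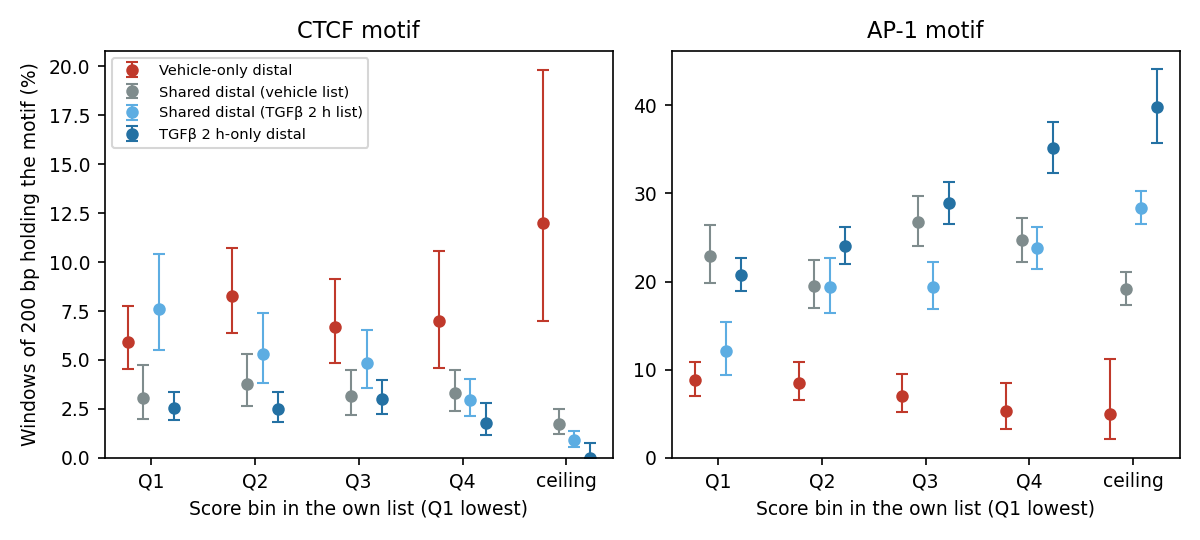
Share of windows with the CTCF motif (left) and the AP-1 motif (right) by score bin (x axis; Q1 to Q4 are the 4 bins below the score ceiling in the list named), with Wilson 95% intervals; the y axes differ. Vehicle-only peaks lie above TGFβ 2 h-only peaks for CTCF and below them for AP-1 in each bin, and shared peaks ranked in the TGFβ list fall from 7.61% to 0.894% for CTCF.

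Members lay mostly outside genes and in introns. The midpoint was in intergenic sequence for 1234 members, or 51.8% (49.8 to 53.8), and in an intron for 968, or 40.7% (38.7 to 42.6). Coding exons held 108 members, or 4.54% (3.77 to 5.45), against 1.94% (1.60 to 2.36) of shared distal and 2.59% (2.23 to 3.01) of TGFβ 2 h-only distal peaks. Untranslated exon parts held 2.23% (1.71 to 2.90) against 1.15% (0.889 to 1.47) and 1.29% (1.04 to 1.59). Coding and untranslated exon positions were thus more frequent among the members than in either other class, with intervals that did not meet. The intron share was close to that of shared peaks (40.8%) and was below the 45.5% of TGFβ 2 h-only peaks.

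Among the coding-exon members, 4 had a score of 900 or more and are named for that reason, a choice made after their values were seen. A member at the ceiling lay in Cdk18, a cyclin-dependent kinase gene, at chr1:134017828-134018234, 18.2 kb from its nearest start. Another at the ceiling lay in Trmu, which encodes an enzyme that modifies mitochondrial transfer RNA, at chr15:85726639-85726999. The member in Nfkbiz had a score of 999 and the member in Cxcl17, a chemokine gene, a score of 938. The coding-exon members held CAGGTG in 25.9% (18.6 to 34.9) and CTCF in 3.70% (1.45 to 9.14) of 108 windows.

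**Figure D3:**
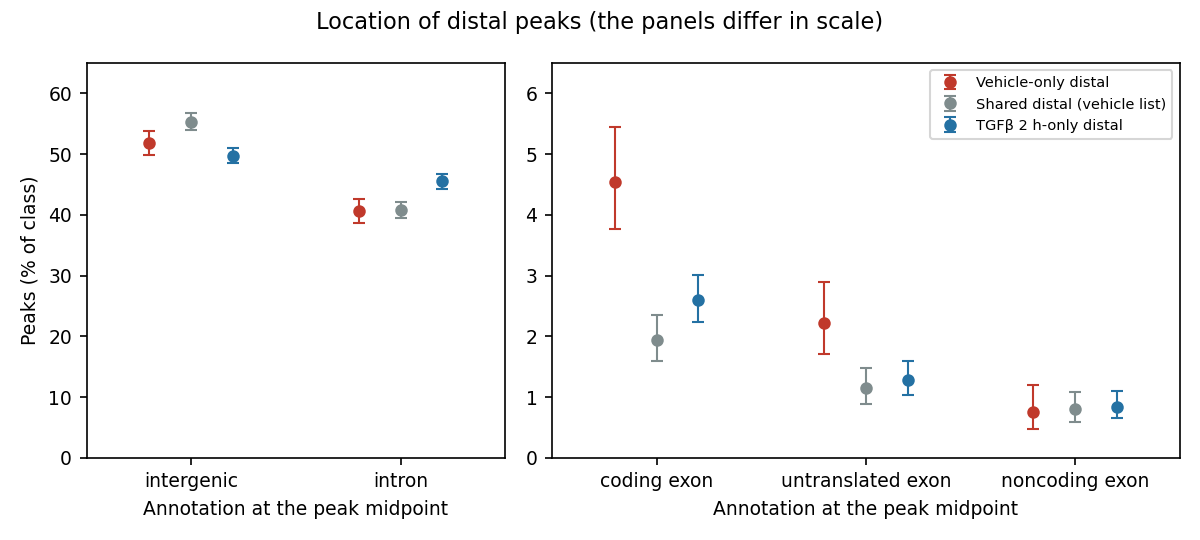
Share of distal peaks (y axis, % of the class) whose midpoint lay in intergenic sequence, introns and 3 kinds of exon, for vehicle-only, shared and TGFβ 2 h-only peaks, with Wilson 95% intervals; the panels differ in scale. Coding exons held 4.54% of vehicle-only peaks, 1.94% of shared and 2.59% of TGFβ 2 h-only peaks.

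The median distance from a member to the nearest protein-coding start was 21.7 kb (20.3 to 23.3). It was 21.9 kb (21.1 to 23.0) for shared distal peaks and 27.8 kb (26.9 to 29.1) for TGFβ 2 h-only peaks, so members lay nearer to genes than TGFβ 2 h-only peaks, while the intervals of members and shared peaks overlapped. A protein-coding start lay within 10 kb of 24.9% of members, within 100 kb of 87.7% and within 500 kb of 99.3%. The farthest member was 2140 kb from such a start. The start of the nearest gene carried a peak in both lists for 55.6% (53.6 to 57.6) of members and in neither list for 38.6% (36.7 to 40.6), against 61.2% and 32.8% for shared distal peaks. TGFβ 2 h-only peaks had 57.4% (56.2 to 58.6) and 36.0% (34.8 to 37.1), with intervals that met those of the members.

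The gap from a member to the nearest TGFβ interval had a median of 16.2 kb (15.2 to 17.8), with quartiles of 6.42 and 41.0 kb and a highest value of 3330 kb. The gap is a measure the selection used, since no overlapping base was allowed. A gap of at most 200 bp was found for 56 members (2.35%), of at most 1000 bp for 161 (6.76%), and of at most 10 kb for 834 (35.0%). For TGFβ 2 h-only peaks the median gap to a vehicle interval was 23.9 kb, and 4.33% lay within 1000 bp. No TGFβ peak came within 50 kb of the midpoint of 504 members (21.2%).

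The nearest TGFβ interval was a promoter peak shared by both lists for 909 members (38.2%), a TGFβ 2 h-only distal peak for 703 (29.5%) and a shared distal peak for 684 (28.7%). Among the 161 members within 1000 bp, 90 (55.9%) lay beside a shared distal peak, a site called in both conditions. The members nearest to the limit were separated from a TGFβ interval by 1, 8 and 11 bp, near Foxn2, in Rere and in Dcaf5. Just outside the selection, the smallest overlaps of distal vehicle peaks were 7 bp in Mcc, 38 bp in Als2cr12 and 41 bp in Dpysl5. At the promoter limit, the nearest members lay 1004, 1013 and 1025 bp from a transcript start, and the nearest peaks left out lay 997, 997 and 995 bp from one.

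**Figure D4:**
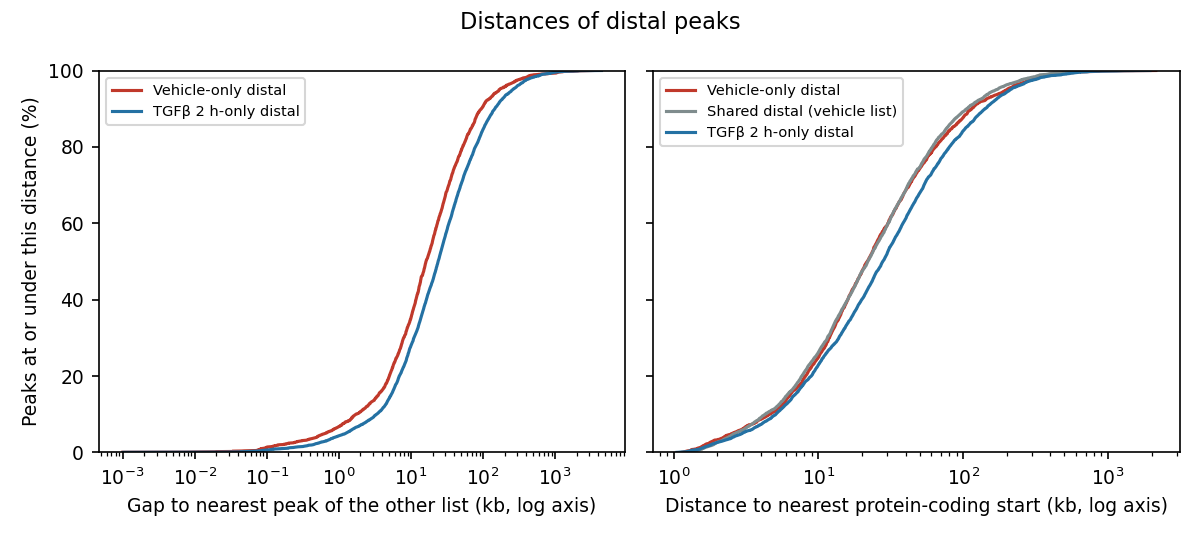
Cumulative share of distal peaks (y axis, %) by the gap to the nearest peak of the other list (left) and by the distance to the nearest protein-coding start (right), both in kb on log axes. Vehicle-only peaks reach 50% at 16.2 kb on the left, and on the right their curve follows that of shared peaks (medians 21.7 and 21.9 kb), with TGFβ 2 h-only peaks farther out at 27.8 kb.

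Scores of the members were low for a distal vehicle peak, with a median of 649 (641 to 656) against 852 (841 to 860) for shared peaks, and 30.7% of members scored under 600. The ceiling was reached by 100 members, or 4.20%, and by 32.2% of shared peaks. Read the other way, 57.7% (55.1 to 60.2) of the distal vehicle peaks in the lowest score bin were vehicle-only, then 44.0%, 36.4% and 19.8% in the next bins, and 5.68% (4.69 to 6.86) at the ceiling. Members were 450 bp wide at the median (442 to 464), and shared vehicle peaks 664 bp (654 to 671). The part of the low scores in the absence of a TGFβ counterpart was not tested.

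**Figure D5:**
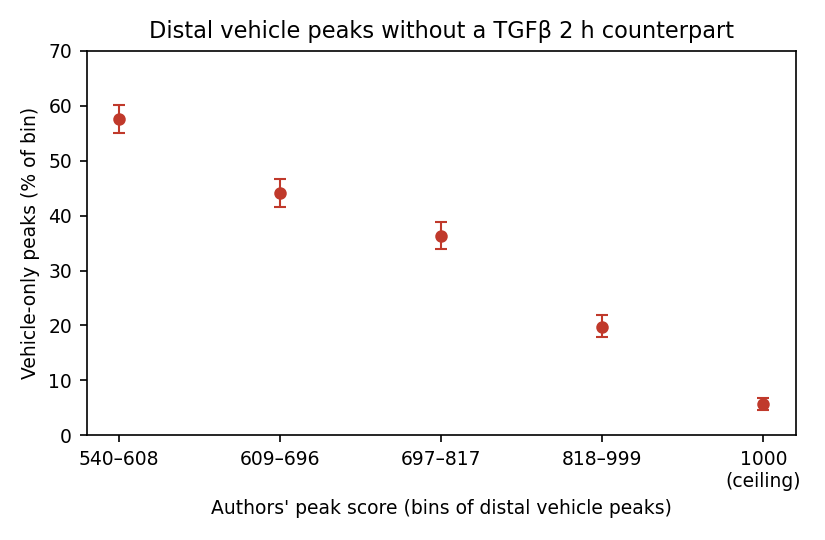
Share of distal vehicle peaks that had no overlapping base in the TGFβ list (y axis, %) by the authors' peak score (x axis, 4 bins below the ceiling and the ceiling), with Wilson 95% intervals. The share falls from 57.7% in the lowest bin to 5.68% at the ceiling of 1000.

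Most members lay apart from each other. Another member lay within 10 kb of 203 members (8.53%, 7.47 to 9.72) and within 50 kb of 560 (23.5%). The values for TGFβ 2 h-only peaks were 20.7% and 52.0%, in a class of 6519 against 2381, and this difference in number was not removed. Linking members in steps of at most 10 kb left 2178 alone and gave 97 pairs and 3 chains of 3. Some close neighbours were pieces at the same score: 127 members had another within 1 kb, and 48 had another within 1 kb at the same score, so neighbouring members are not independent sites.

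The longest chain ran over 13.4 kb at chr9:56108156-56121519 in C230081A13Rik, with 1 TGFβ interval inside it and scores of 664, 667 and 629. A second chain of 3, over 6.29 kb at chr16:3256899-3263189, lay 329 to 335 kb from Olfr161, an odorant receptor gene, and its scores were 761, 570 and 835. The third took up 0.732 kb at chr19:47243291-47244022 near Gm6970. The largest pairs were near Eya1, which encodes a transcriptional cofactor, 261 and 271 kb from any TGFβ interval, and in Wfdc1, a protease inhibitor gene.

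Members lay on every autosome and on X. They made up 27.8% (23.2 to 33.0) of distal vehicle peaks on chromosome 4 and 35.0% (30.3 to 40.0) on chromosome 10, the lowest and highest autosomes. On X they were 39 of 95, or 41.1% (31.7 to 51.1). Density ran from 0.234 members per Mb on X to 2.38 on chromosome 19.

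A protein-coding gene was assigned to each member by its nearest start. The members had 2022 nearest genes, or 9.10% of 22232, of which 1717 had 1 member, 259 had 2, 38 had 3 and 8 had 4. Of these 2022 genes, 908 (44.9%) were also nearest to a TGFβ 2 h-only distal peak, which is 22.0% of the 4129 genes nearest to such a peak, and 821 were nearest to neither a TGFβ 2 h-only nor a shared distal peak. Over all protein-coding genes, 18.6% were nearest to a TGFβ 2 h-only and 15.7% to a shared distal peak. Being nearest does not show that a peak regulates the gene.

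The 8 genes with 4 members were Ablim1 and Phactr1, whose products bind or regulate actin, Ehf, an ETS factor of epithelia, Nfkbiz, a nuclear regulator of NF-κB target genes, Tbc1d1, a Rab GTPase-activating protein, Tsc22d2, Uvrag, which acts in autophagy and endosomal traffic, and the ligand gene Wnt7b. Uvrag had neither a TGFβ 2 h-only nor a shared distal peak among those nearest to it, although 2 TGFβ 2 h-only peaks lay within 100 kb of its start. Its 4 members had scores of 560, 584, 593 and 767 and lay 20.5 to 75.2 kb from its start, 3 in its own introns and 1 in an intron of Dgat2. Ablim1 had 4 members in its introns, with scores from 580 to 717, beside 7 shared distal peaks and no TGFβ 2 h-only peak. Phactr1 had members with scores from 752 to 804 at 107 to 209 kb from any TGFβ interval, and its start had a peak in neither list.

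Nfkbiz had 2 members in its coding exons, at chr16:55816297-55816657 and chr16:55816824-55817122, with scores of 673 and 999 and with CAGGTG in both windows. Tbc1d1 and Tsc22d2 had members as far as 224 and 276 kb from their starts, beside 2 and 3 TGFβ 2 h-only peaks. The 10 genes with most members were completed by 1810012P15Rik and the transporter gene Abcc12, which had 3 each and came first by symbol among the 38 genes with that number. The member at chr11:78669858-78670185 near 1810012P15Rik held a CTCF match.

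Genes were also read in 12 lists of pathways and lineages that were drawn up with earlier results of these data known. Over all protein-coding genes there were 2.74 TGFβ 2 h-only distal peaks for each member. In the lists this ratio ran from 1.44 for cell cycle genes, 1.47 for the Wnt pathway and 1.56 for insulin, IGF and serum response genes to 5.7 for TGFβ receptors, Smads and feedback genes, 6.5 for the Notch pathway and 7.0 for both EMT factors with mesenchymal genes and AP-1 factors. With a gene linked to every peak within 100 kb of a start, the ratio over all peaks so placed was 2.63, and the order of the lists changed. From the lowest, the ratio was then 1.38 for cell cycle, 1.4 for BMP and Id, 1.71 for Wnt, 2.14 for Notch, 2.35 for lineage factors, 2.47 for insulin, IGF and serum response and 2.58 for Hippo genes. Above the ratio of all peaks lay epithelial junction and splicing genes at 3.59, TGFβ receptors, Smads and feedback genes at 3.61, AP-1 factors at 3.88, EGF receptors, ligands and MAPK feedback genes at 5.44 and EMT factors with mesenchymal genes at 6.5. The counts behind these ratios were small, and no list was tested. At least 1 member was nearest to 9.10% of all protein-coding genes, to 5% of AP-1 factor genes and to 10% to 33.3% of the genes in the other lists. The percentages were 33.3% for lineage factors, 29.4% for Wnt, 28.6% for EGF and MAPK feedback and 25.8% for TGFβ receptor, Smad and feedback genes. In that order, these lists held 0.714%, 0.630%, 0.462% and 0.420% of the members. They held 0.552%, 0.337%, 0.660% and 0.874% of TGFβ 2 h-only distal peaks. Shares of genes were not computed for the other distal classes, so they are not shown to be particular to the members.

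The Wnt pathway list, of secreted ligands, Frizzled receptors, inhibitors and nuclear factors, had 15 members at 10 of 34 genes, against 22 TGFβ 2 h-only peaks. Wnt7b, a ligand of mammary and other epithelia, had 4 members, 7 shared distal peaks and no TGFβ 2 h-only distal peak. Its members were a peak of score 707 at chr15:85413379-85414236 in an exon of the noncoding gene AU022754, 1.56 kb from the Wnt7b start, adjoining peaks of score 654 at 28.7 and 29.2 kb, and a peak at the ceiling at chr15:85475818-85476227, 63.8 kb away and 0.377 kb from a TGFβ interval. The start of Wnt7b itself had a peak in the TGFβ list only. Dkk1, a secreted Wnt inhibitor, had 2 adjoining members 4.73 and 5.02 kb from its start, with scores of 544 and 862, and no other distal peak nearest to it, while its start had a peak in the TGFβ list only. Tcf7l2, a nuclear partner of β-catenin, had 2 members with scores of 896 and 552, beside 4 TGFβ 2 h-only and 7 shared peaks. Wnt5a, Lgr4 and Lgr5 each had 1 member and neither kind of other distal peak.

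The list of mammary and epithelial lineage factors had 17 members at 10 of 30 genes, against 36 TGFβ 2 h-only peaks. Ehf had 4 members with scores of 561, 561, 979 and 758; the first and second lay side by side and both held the AP-1 motif, and the third lay in an intron of Ehf 2.99 kb from its start. The start of Ehf had a peak in neither list. Klf4, Sox9, Sox4 and Cebpb, which encode factors of epithelial, progenitor and secretory programmes, had 2 members each, with highest scores of 675, 583, 550 and 630. They had 4, 2, 3 and 5 TGFβ 2 h-only peaks.

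Cell cycle genes had 9 members at 6 of 29 genes, against 13 TGFβ 2 h-only peaks. Ccnd1, the gene of cyclin D1, had a member at the ceiling at chr7:152127248-152127772, 1.74 kb from its start and 1.45 kb from the nearest TGFβ interval. Its start had a peak in the vehicle list only. It had 1 more member, at 117 kb, beside 2 TGFβ 2 h-only and 6 shared distal peaks. Myc, a growth-promoting factor gene, had 3 members at 119, 271 and 479 kb, of which the nearest, with a score of 895, lay in an intron of Pvt1. It also had 3 TGFβ 2 h-only and 11 shared distal peaks.

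In the list of insulin, IGF and serum response genes, 7 of 30 had 9 members, against 14 TGFβ 2 h-only peaks. Ier2, an immediate early gene, had 2 members in introns of Cacna1a 68.2 and 70.5 kb away, of which the nearer held a CTCF match. Sesn3, a stress-induced regulator of growth signalling, had 2, with scores of 665 and 613. Each of these genes also had 1 TGFβ 2 h-only peak.

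TGFβ receptors, Smads and feedback genes had 10 members at 8 of 31 genes, against 57 TGFβ 2 h-only peaks. Acvr1, a type I receptor of the family, had 2 members in its introns, 4.58 and 7.91 kb from its start, with scores of 571 and 596, beside 1 TGFβ 2 h-only peak. Smurf1, a ubiquitin ligase that acts on Smads and receptors, had 2 members with scores of 560 and 547, beside 3. The factors Smad2, Smad3 and Smad5, the ligand gene Tgfb2 and the coreceptor gene Tgfbr3 had 1 member each, beside 1, 5, 3, 5 and 3 TGFβ 2 h-only peaks. The BMP pathway and Id list had 6 members at 6 of 24 genes, against 12 TGFβ 2 h-only peaks, among them Id1, Id2 and Id4, which encode inhibitors of bHLH factors, and Bmp4, each with 1 member and no TGFβ 2 h-only peak. The other two were Bmp6 and Fst, with 1 member and 1 TGFβ 2 h-only peak each.

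EMT factors and mesenchymal genes had 4 members at 3 of 30 genes, against 28 TGFβ 2 h-only peaks. Sparc, a matrix glycoprotein gene, had 2, the nearer in its own intron 1.75 kb from the start with a score of 741, and its start had a peak in neither list. Snai1 and Ctgf had 1 each. Among 20 AP-1 factor genes only Atf7 was nearest to a member and the list had 7 TGFβ 2 h-only peaks. Within 100 kb of a start the AP-1 list had 8 members and 31 TGFβ 2 h-only peaks.

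Hippo pathway genes had 7 members at 4 of 22 genes, against 29 TGFβ 2 h-only peaks. Wwc1, an upstream activator of the pathway, had 3 members with scores of 989, 631 and 1000, beside 4 TGFβ 2 h-only and 4 shared peaks, and its start had a peak in the TGFβ list only. Vgll4, a TEAD cofactor that opposes Yap, had 2 members, both in introns of the neighbouring gene Atg7, with scores of 692 and 805, beside 5 TGFβ 2 h-only and 2 shared peaks. Yap1 had 1. EGF receptors, ligands and MAPK feedback genes had 11 members at 8 of 28 genes, against 43 TGFβ 2 h-only peaks. Nrg1, a ligand of the ErbB receptors, had 3 members at 190 to 197 kb and 3 TGFβ 2 h-only peaks, and Dusp4, a MAPK phosphatase gene, had 2 members and 1 TGFβ 2 h-only peak.

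Notch pathway genes had 4 members at 4 of 25 genes, 1 each at Notch2, Notch3, Dll1 and Lfng, against 26 TGFβ 2 h-only peaks. Epithelial junction and splicing genes had 9 members at 8 of 32 genes, against 23. Pard3, a polarity gene, had 2 of them, with a score of 821 for the member in its intron at chr8:129608263-129608722 and 667 for the other. The tight junction genes Tjp1, Cgn and Marveld3, the desmosomal genes Jup and Dsg2, and the keratin genes Krt18 and Krt19 had 1 member each.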

How the data were processed

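DNaseI-seq of 2 samples, which were grouped by title, gave 1 peak list each. According to the methods, the authors mapped reads to mm9 and followed their ATAC-seq pipeline with settings for DNaseI-seq. For ATAC-seq that pipeline retained peaks found reproducible in both replicates by an irreproducible discovery rate; the DNaseI-seq settings for this step are not stated, and merged read files are listed for each condition. The submitters' processing notes name MACS2 2.1.2 and deepTools. The deposited column used was the authors' whole-number peak score. Its scaling is not given in the sources used here, so a higher score does not by itself mean more accessible chromatin. The series text speaks of duplicates, and separate lists per replicate were not used here. Read depth is not in the lists, and no value was scaled by it. In the study's reporting summary the vehicle library had the larger number of mapped reads.

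Identical intervals were collapsed to 1 peak, from 70449 vehicle and 68542 TGFβ rows. Sequence was NCBIM37 (mm9) and gene models GENCODE M1. Location was read at the midpoint, in the order coding exon, untranslated exon, noncoding exon, intron and intergenic. Motifs were searched on both strands in 200 bp. The lists held 335 entries of 331 genes, all matched by symbol. Named were the 8 members at the highest score farthest from a TGFβ interval, the 5 largest chains, the 10 genes with most members (ties by symbol), list genes with at least 2 members, the highest-scoring members with a motif more frequent than in TGFβ 2 h-only peaks, and the peaks at each limit. From the first set, 3 sequences were printed. The result of 1 list gene was left out and is not reported here; list genes with 1 member were named in part. Other list genes and the coding-exon members were named after their values were seen. The members, lists and motifs were chosen with earlier results of these data known. Alternatives covered the overlap, start window, score, interval width, gene set, motif window and gene link. Code was written in Python 3.11.15 with NumPy 2.4.6, SciPy 1.17.1 and matplotlib 3.10.9, and was tested on simulated intervals and motifs. With 1 list per condition no p-value was computed.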

Additional observations from a re-analysis of the deposited data

How the results depend on the processing

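With 1 list per condition, replicate spread and depth could not be weighed, and the lists carried no pairs to block on. A peak absent from a list shows only that none was called there. Of 33 alternatives for counts, location, distance, spacing and base composition, 16 stayed within 1.5 times the count or within the 95% interval. The count was 100 for peaks at the score ceiling and 5940 with every row counted. The vehicle-only share was 38.0% with a reciprocal overlap of 50%, 29.5% with peaks within 1000 bp as shared, 5.68% at the ceiling and 24.9% over rows. Introns held 38.5% with protein-coding genes only and 36.9% when whole intervals were read, and intergenic sequence 54.3% with protein-coding genes only. The median start distance was 14.7 kb to starts of all transcripts and 20.1 kb for members at or above the median score of 649. The median gap was 34.2 kb to TGFβ peaks at or above their median score and 13.9 kb from members at or above theirs. Another member lay within 5 kb of 6.26%, within 25 kb of 15.4%, and within 10 kb of 5.86% of members at or above the median score. Median GC over whole intervals was 51.3%. Of 60 motif alternatives 22 stayed within the interval, and the window length moved most others. Over whole intervals the shares were 16.8% for AP-1, 0.462% for CRE, 14.7% for CTCF, 28.3% for TEAD, 1.89% for HNF1, 0.252% for the SMAD box, 18.6% for GATA, 3.28% for ETS, 12.9% for EHF and ELF, 13.6% for RUNX, 6.93% for FOX, 3.82% for GRHL, 18% for TFAP2, 16.0% for KLF and SP, 40.3% for CAGGTG, 12.9% for STAT, 1.72% for POU and 5.46% for SOX. In 100 bp they were 4.49% for AP-1, 0.0420% for CRE, 3.61% for CTCF, 6.34% for TEAD, 0.378% for HNF1, 4.12% for GATA, 0.840% for ETS, 2.90% for EHF and ELF, 3.23% for RUNX, 1.72% for FOX, 0.672% for GRHL, 3.95% for TFAP2, 4.96% for KLF and SP, 10.5% for CAGGTG, 2.44% for STAT, 0.294% for POU and 1.51% for SOX. Among members at or above the median score, ETS was at 2.34%, and the SMAD box and CEBP at 0 of 1195, which allows up to 0.251%. TGFβ 2 h-only peaks stayed below members for CTCF and CAGGTG, and above them for AP-1, with each window and at or above the median score, although for CAGGTG the intervals met in 100 bp; the intervals of TEAD and RUNX met in 100 bp and over whole intervals, and those of TEAD also in the higher-scored peaks. Over whole intervals the shares of TGFβ 2 h-only peaks were 4.02%, 32.4% and 45.2%. With genes linked within 100 kb of a start, 5 of 12 list counts stayed within 1.5 times. The others were 17 for epithelial junction and splicing genes, 15 for insulin, IGF and serum response, 18 for TGFβ receptors, Smads and feedback, 15 for BMP and Id genes, 8 for AP-1 factors, 12 for Hippo and 14 for Notch genes. The cause of the moves in location, distance and list counts was not tested.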
